A study of Mus musculus with 4 samples.

Results

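The Hippo pathway's core kinases and their immediate partners and upstream regulators were examined as a set of 10 genes: the kinases Stk3, Stk4, Lats1 and Lats2, their scaffold and cofactors Sav1, Mob1a and Mob1b, and the cortical regulators Nf2, Wwc1 and Wwc2. The genes were chosen by symbol among 32285 measured features, by their place in the pathway rather than by a threshold on measured values, and all 10 were found. They were read in single cells of whole noses from mouse embryos at embryonic day 14.5, sequenced with the 10x 3′ assay, in which a unique molecular identifier (UMI) marks 1 captured transcript. Libraries came from 2 control and 2 mutant noses. The mutant genotype is given as Sox10cre; yap flox/WT; taz flox/flox. Both copies of Taz and a single copy of Yap thus carry lox sites, and Cre acts where Sox10 is or was active, in neural crest derivatives such as glia. The accounts of the controls differ: the sample labels give strain C57Bl/6J, and the series design gives floxed Yap and Taz alleles with no Cre. Groups therefore follow the library names. After barcodes with fewer than 500 genes or more than 10% mitochondrial UMIs were set aside, 13739 cells remained.

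In this pathway Nf2 and the Wwc proteins act at the cell cortex to bring the kinases together. Stk3 and Stk4, held by the scaffold Sav1, phosphorylate Lats1 and Lats2 and their cofactors Mob1a and Mob1b. The Lats kinases in turn phosphorylate the coactivators Yap1 and Wwtr1 (Taz), which keeps them out of the nucleus, where they would drive transcription through TEAD factors. Lats2 and Nf2 are known among the targets of that transcription, a feedback that sets the kinases against their own substrates. In the nose, cells of very different habits share the pathway: stratified surface epithelium, cartilage, bone, vessels, nerve-associated glia and loose mesenchyme.

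Promoter sequence was available for 9 of the 10 genes (RefSeq, GRCm38.p6, 250 bases before to 50 after the start) and was searched for the TEAD core motif GGAATG and its reverse complement CATTCC. At least 1 match stood in 14.7% of all 32851 windows of 300 bases, which came from 27025 genes. Counted by gene and not by window, 4 of the 9 genes, Wwc2, Lats2, Mob1a and Sav1, had one. Lats2 and Nf2 each had a further window at another start site, without a match. Wwc2 had 3 matches within 250 upstream bases, as did 0.0913% of all windows, and its paralog Wwc1 had none. These 2 promoters are shown as a paralog pair, in which Wwc2 had more matches than any other of the 9 genes. Levels of all the paralog pairs are set side by side further on. No link between the matches and those levels was tested. The third sequence is the stretch around the only Lats2 match, which begins at position 5 counted from the start site of its window. All are 5′ to 3′ on the gene's strand with matches in capitals, at chr8:47990545-47990794 for Wwc2, chr11:35980528-35980777 for Wwc1 and chr14:57746102-57746131 for Lats2, each on the minus strand. A match describes these letters and is no evidence of binding.
Wwc2: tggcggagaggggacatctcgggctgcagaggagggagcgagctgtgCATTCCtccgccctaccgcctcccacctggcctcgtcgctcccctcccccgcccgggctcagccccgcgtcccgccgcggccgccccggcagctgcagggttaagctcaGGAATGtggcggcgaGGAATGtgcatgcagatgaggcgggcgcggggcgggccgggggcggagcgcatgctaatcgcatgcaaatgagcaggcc
Wwc1: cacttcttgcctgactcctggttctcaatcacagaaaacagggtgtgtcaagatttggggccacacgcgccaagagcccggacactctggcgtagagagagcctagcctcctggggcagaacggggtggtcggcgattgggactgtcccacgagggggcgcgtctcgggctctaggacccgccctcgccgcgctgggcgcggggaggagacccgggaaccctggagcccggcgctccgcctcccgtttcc
Lats2: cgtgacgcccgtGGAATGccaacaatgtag

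Kept libraries held 2474 to 4195 cells and 19767873 to 35331450 UMIs, with median depths of 5282 to 8549 UMIs per cell, and any 2 libraries shared 4 to 8 cell barcodes. Cells were assigned to classes by gates of 8 marker genes, none of them among the 10, and each class is named for its gate. Tests ran on 8 classes, those reaching 20 cells in each library, namely mesenchyme (9152 cells), keratinocyte (869), osteoblast (674), chondrocyte (401), macrophage (273), endothelium (206), mural (175) and glia (119). Between 8.38% and 11.9% of cells per library joined no class. Mesenchyme markers did not count against the chondrocyte, osteoblast and mural gates, and cells of those classes held a median of 3 to 5 mesenchyme markers in each library. Of 16 further marker genes that the gates did not use, 14 were highest in their own class, and the exceptions were the mesenchyme genes Col1a1 and Col3a1, which were higher in osteoblasts and chondrocytes. Levels are given as CPM, a gene's share of all UMIs summed over a class in one library, scaled to 1e6, always in the order control 1, control 2, mutant 1, mutant 2. Glial sums were the smallest, at 145431 to 381590 UMIs, so that a level there can rest on fewer than 10 UMIs.

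The targeted genes were read first. Yap1 stood at 65.0, 65.2, 56.4 and 56.0 CPM over all cells, lower in both libraries labelled mutant, with a log2 difference of -0.25 ± 0.075 (SE, n = 2 against 2) and an edgeR adjusted p of 0.909. In glia it rested on 22, 14, 17 and 8 UMIs. Wwtr1 stood at 118.4, 145.1, 122.6 and 131.9 CPM over all cells and at 225.4, 198.1, 241.1 and 330.1 CPM in glia. Its levels overlapped between the groups over all cells (-0.09 ± 0.13) and were higher in both libraries labelled mutant in glia (0.33 ± 0.27), with edgeR adjusted p of 0.935 and 0.960. The 3′ assay counts transcripts whether or not they hold the floxed exons, so neither gene measures recombination here.

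Each of the 10 genes was higher or lower in at least 1 class, and the class differed from gene to gene. Each class was tested against the mean of the other 7 with edgeR's quasi-likelihood test on the 32 sums, with library as a block and p adjusted over 11290 genes. Of 80 tests, 30 passed an adjusted p of 0.05, 16 higher and 14 lower. The share of these genes that passed in each class is the background. In macrophages 8 members passed where 59.9% of all genes did, 2 higher (29.1% of genes) and 6 lower (30.8% of genes). In keratinocytes 6 passed where 51.1% did (28.6% higher, 22.6% lower), and in mesenchyme 6 where 48.9% did. Endothelium had 4 against 40.2% of all genes, chondrocytes 3 against 35.8%, and glia 2 against 22.3%. In osteoblasts 1 member passed where 35.3% of genes did, and in mural cells none did, 1 of 10 having an unadjusted p under 0.05, where 21.4% of genes passed. A count of 10 genes is not read as set apart from these shares, and the results below are those of single genes. Because a mean over classes is pulled by any class near 0, each class was also set against mesenchyme alone, a reference chosen after the levels were seen.

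**Figure D1:**
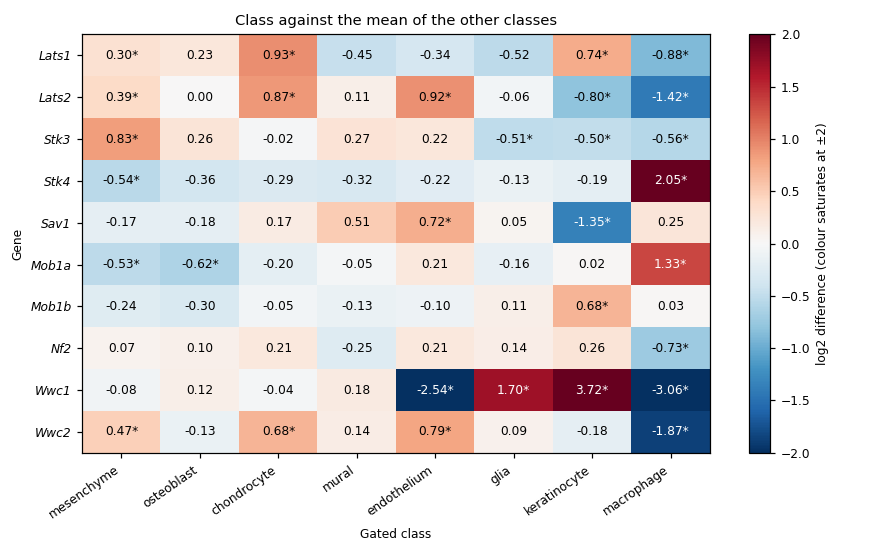
Log2 difference of each gene (rows) in each gated class (columns) against the mean of the other 7 classes, edgeR, 4 libraries per class; red is higher, blue lower, and an asterisk marks an adjusted p under 0.05. The strongest colours are Wwc1 in keratinocytes (3.72) and macrophages (-3.06), Stk4 in macrophages (2.05) and Wwc1 in endothelium (-2.54).

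Among the upstream regulators, Wwc1 (Kibra, a WW-domain scaffold that promotes Lats phosphorylation) was the most unevenly expressed of the 10, with a ratio of 95.5 between its highest and lowest class mean. In keratinocytes it stood at 74.8, 120.2, 72.8 and 84.9 CPM. In mesenchyme it stood at 9.64, 9.98, 7.32 and 8.93 CPM. The keratinocyte level lay above every library of every other tested class. It was 3.72 ± 0.19 higher on the log2 scale than the mean of the other classes (adjusted p = 1.4e-17) and 3.32 ± 0.19 higher than mesenchyme alone (adjusted p = 4.3e-16). Wwc1 was close to absent from 2 classes. Macrophages held 3, 0, 0 and 0 UMIs and endothelium 1, 3, 0 and 2 UMIs, where 3 counts over all 4 libraries correspond to 1.16 and 0.892 CPM. Both lay below mesenchyme, by -2.62 ± 0.78 (adjusted p = 0.0039) and -2.16 ± 0.61 (adjusted p = 0.0033) on the log2 scale, differences that rest on these few UMIs. Against the mean of the other classes the endothelial call was lost without control 1 (-1.46, adjusted p = 1.00) and in control or mutant libraries alone (adjusted p = 0.064 and 1.00). The macrophage call was lost in control libraries alone (-2.23, adjusted p = 0.062). Without control 1 no Wwc1 UMI is left in macrophages, and the fitted value of -8.01 is no bound. Mural, osteoblast, chondrocyte and mesenchyme means ran from 8.97 to 11.2 CPM, with overlapping ranges. In glia the gene passed as higher (1.70 ± 0.45, adjusted p = 0.0048), but the 4 libraries gave 52.4, 8.25, 18.8 and 6.88 CPM, and without control 1 the difference was 1.27 with an adjusted p of 0.224.

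Wwc2 was broad where Wwc1 was narrow. Its class means fell in the order chondrocyte (102.7 ± 19.3 CPM, SD, n = 4), endothelium, mesenchyme, mural, glia, osteoblast, keratinocyte and macrophage (16.3 ± 10.9). Each class overlapped the next in this order except macrophages, which stood below all others at 32.0, 7.00, 11.7 and 14.4 CPM. Against the mean of the other classes Wwc2 was higher in endothelium (0.79 ± 0.13), chondrocytes (0.68 ± 0.13) and mesenchyme (0.47 ± 0.10), and lower in macrophages (-1.87 ± 0.21, adjusted p = 2.5e-09). Against mesenchyme alone, itself among the classes that passed as higher, neither endothelium (adjusted p = 0.110) nor chondrocytes (adjusted p = 0.440) differed detectably. Against that reference keratinocytes (-0.56 ± 0.14) and osteoblasts (-0.53 ± 0.14) were lower. Macrophages were the class with 0 Yap1 UMIs among 2589309, which allows up to 1.16 CPM where Yap1 stood at 56.0 to 65.2 CPM over all cells. That limit covers counting error only, and what free RNA from other cells brought into the class was not tested. Macrophages also had the lowest mean of Lats1, Lats2, Stk3, Nf2 and Wwc1 among the tested classes. Whether the Wwc2 level is tied to Yap1 was not tested.

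Nf2 (Merlin, the membrane-linked protein that recruits the Lats kinases) was the most even gene of the regulators. Its means ran from 33.8 ± 5.0 CPM in keratinocytes down to 24.2 ± 6.3 in mural cells, and then to 15.1 ± 4.4 in macrophages, every class overlapping the next. The macrophage libraries gave 17.2, 8.75, 15.6 and 18.8 CPM, below the mesenchyme libraries at 29.4, 32.7, 31.4 and 30.7. That was the only class to pass for Nf2 (-0.73 ± 0.25, adjusted p = 0.012). Without control 2, the lowest library, the difference was -0.48 and the adjusted p 0.151.

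**Figure D2:**
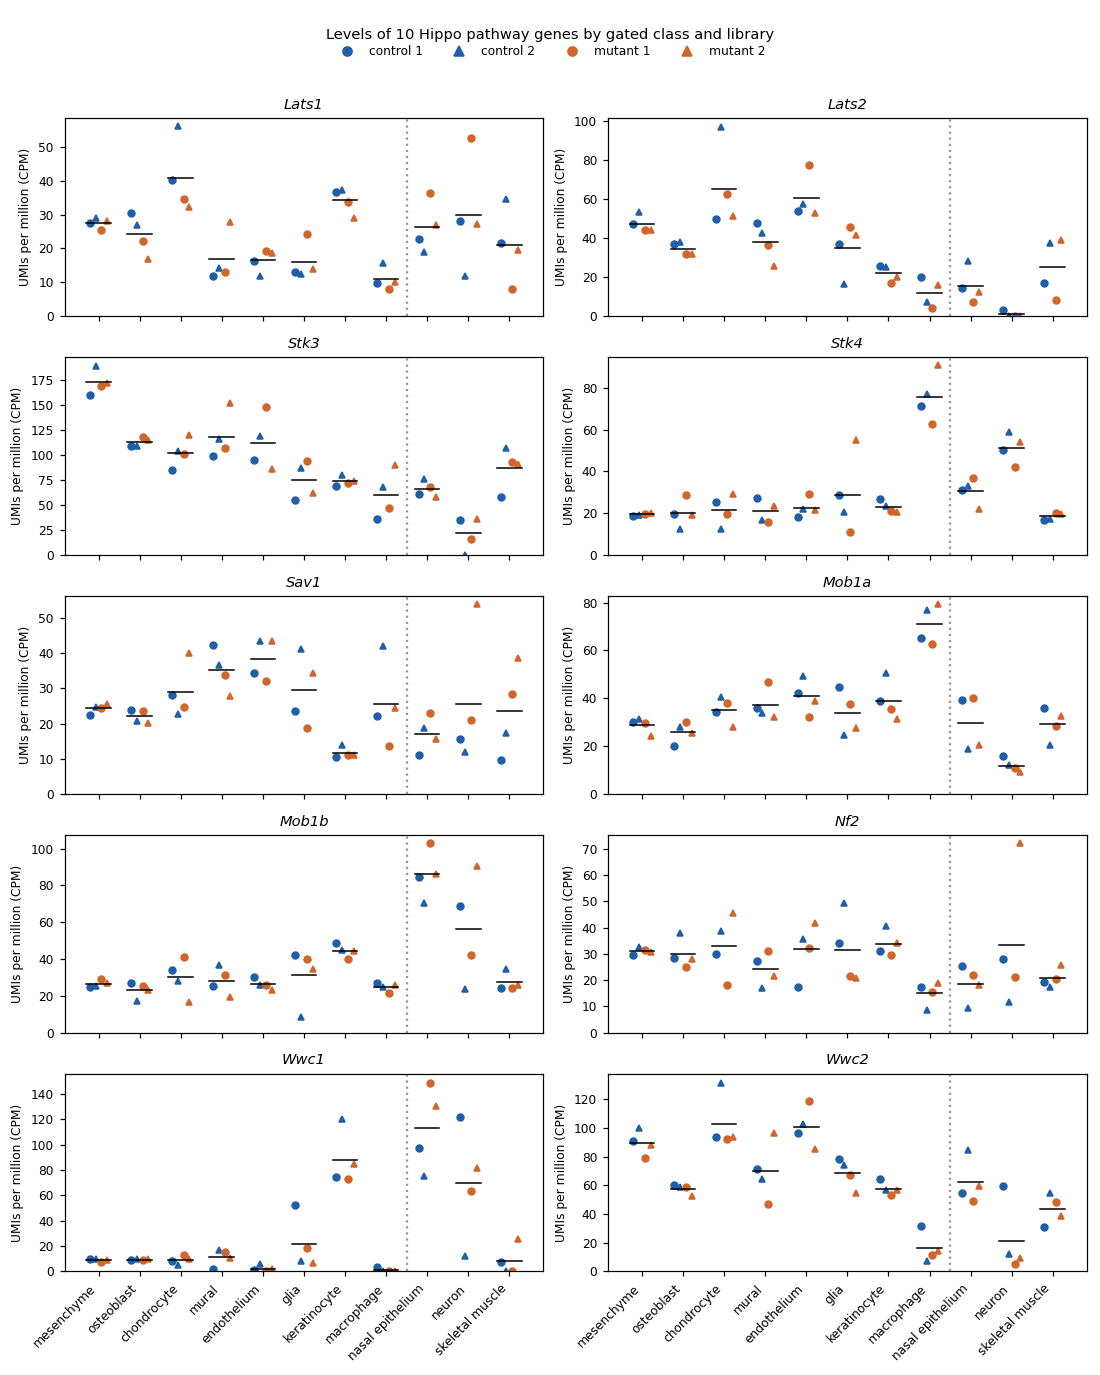
Level of each of the 10 genes in CPM (vertical axes, one panel per gene) in the gated classes (horizontal axes); each point is one library, blue for control and orange for mutant, bars mark class means, and classes right of the dotted line had fewer than 20 cells in a library. Left of that line Stk3 is highest in mesenchyme, Stk4 and Mob1a in macrophages and Wwc1 in keratinocytes, in all 4 libraries.

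The upstream kinase pair split between 2 classes. Stk3 (Mst2) stood at 159.9, 188.5, 169.2 and 172.2 CPM in mesenchyme, above the highest library of every other tested class. It was 0.83 ± 0.090 above the mean of the other classes on the log2 scale (adjusted p = 2.3e-09). Against mesenchyme alone Stk3 was lower in all 7 other classes, from -0.50 ± 0.15 in mural cells (adjusted p = 0.013) to -1.22 ± 0.16 in macrophages (adjusted p = 4.2e-08). Mural, osteoblast, endothelial, chondrocyte, glial, keratinocyte and macrophage means followed in that order, from 118.2 to 60.1 CPM, each overlapping the next. Glia passed as lower against the mean of the others (-0.51 ± 0.18, adjusted p = 0.035), a call lost without control 1, control 2 or mutant 2 (adjusted p = 0.167, 0.114 and 0.094), while glia against mesenchyme alone gave -1.17 ± 0.18 (adjusted p = 6.2e-06).

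Stk4 (Mst1, the kinase whose loss is known for its effects on lymphocytes) had the opposite order. Macrophages gave 71.4, 77.0, 62.5 and 90.9 CPM, and mesenchyme gave 18.7, 19.3, 19.6 and 20.1. No macrophage library overlapped any library of another tested class. The macrophage difference was 2.05 ± 0.16 (adjusted p = 4.9e-13), and 2.26 ± 0.17 against mesenchyme alone. The other 7 class means, from 28.8 in glia to 19.4 in mesenchyme, overlapped in sequence. Mesenchyme passed as lower than the mean of the others (-0.54 ± 0.12, adjusted p = 0.00043), but macrophages were the only class that passed when each was compared with mesenchyme directly.

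Sav1, the scaffold that binds both of these kinases, was lowest in keratinocytes. Those libraries gave 10.6, 13.8, 11.1 and 10.9 CPM, and osteoblasts, the next class, gave 23.8, 20.7, 23.6 and 20.2. Those ranges did not overlap, although 1 macrophage library, mutant 1, was also at 13.7 CPM, and the difference from the mean of the other classes was -1.35 ± 0.15 (adjusted p = 4.7e-09). Endothelium was highest, at 34.5, 43.5, 32.1 and 43.6 CPM, and passed as higher (0.72 ± 0.16, adjusted p = 0.00028). Its range overlapped that of mural cells, which were higher than mesenchyme alone by 0.60 ± 0.20 (adjusted p = 0.027). The remaining classes formed a continuous series between 22.1 and 29.5 CPM. Keratinocytes thus held the highest mean of Wwc1 and the lowest mean of Sav1 among the tested classes.

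Of the downstream kinases, Lats1 and Lats2 separated in surface epithelium. Lats1 in keratinocytes stood at 36.8, 37.4, 33.7 and 29.0 CPM, above each mesenchyme library (27.4, 28.9, 25.4 and 28.1). Lats2 showed the reverse order, at 25.7, 25.2, 16.9 and 19.9 CPM in keratinocytes against 47.2, 53.3, 44.2 and 43.9 in mesenchyme. Against the mean of the other classes Lats1 was 0.74 ± 0.13 higher in keratinocytes (adjusted p = 1.5e-05) and Lats2 0.80 lower (-0.80 ± 0.16, adjusted p = 6.5e-05). Both directions held against mesenchyme alone, at 0.38 ± 0.13 (adjusted p = 0.015) and -1.04 ± 0.16 (adjusted p = 1.9e-06).

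Chondrocytes had the highest mean of both Lats genes, 40.8 ± 10.8 CPM for Lats1 and 65.0 ± 21.7 for Lats2, each overlapping the next class. Both passed there (0.93 ± 0.16 and 0.87 ± 0.16), but the Lats1 call was lost in mutant libraries alone (0.66, edgeR adjusted p = 0.068). Against mesenchyme alone Lats1 passed (0.55 ± 0.16, adjusted p = 0.016) and Lats2 did not (0.42 ± 0.17, adjusted p = 0.093). In endothelium Lats2 was high (53.5, 57.4, 77.1 and 52.9 CPM, 0.92 ± 0.16, adjusted p = 2.3e-05) while Lats1 was lower than in mesenchyme (-0.56 ± 0.20, adjusted p = 0.020). Macrophages were low for both, at 11.6 ± 7.4 CPM for Lats2 and 10.9 ± 3.4 for Lats1, on 2 to 16 UMIs per library (-1.42 ± 0.26 and -0.88 ± 0.25). In the wider fit of 11 classes described further on, the macrophage Lats2 value was -0.68 and the call was lost (adjusted p = 0.103). The macrophage Lats1 call was lost in control libraries alone (-0.66, edgeR adjusted p = 0.11). Mesenchyme itself passed as higher for Lats2 (0.39 ± 0.12) and Lats1 (0.30 ± 0.11, adjusted p = 0.026). The Lats1 call was lost without control 1, control 2 or mutant 2, with adjusted p between 0.054 and 0.123. The mesenchyme Lats2 call was lost in control libraries alone (0.43, edgeR adjusted p = 0.068).

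The Mob1 cofactors, which bind and activate the Lats kinases, also differed in where they were highest. Mob1a in macrophages stood at 65.2, 77.0, 62.5 and 79.3 CPM, above every library of endothelium, the next class, at 42.3, 49.5, 32.1 and 39.0. The macrophage difference was 1.33 ± 0.13 (adjusted p = 1.2e-10). Osteoblasts (-0.62 ± 0.13) and mesenchyme (-0.53 ± 0.092) passed as lower, and these 2 classes did not differ detectably from each other (-0.082 ± 0.14, 95% interval -0.36 to 0.20). Mob1b was highest in keratinocytes among the tested classes, at 48.9, 44.7, 40.2 and 44.1 CPM (0.68 ± 0.12, adjusted p = 1.5e-05). Its other 7 class means lay between 23.0 and 31.2 CPM with overlapping ranges, and the glial range reached into that of keratinocytes. Mob1a and Mob1b are close paralogs, and how reads that fit both were counted is not given in the sources used here.

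The balance within each paralog pair, as the share of the pair's UMIs, restates these levels on one scale, and since capture can differ between 2 genes only its change between classes is read. Stk3 gave 89.8% ± 0.59 (SD, n = 4) of Stk3 and Stk4 UMIs in mesenchyme and 43.2% ± 7.1 in macrophages. Lats2 gave 78.4% ± 3.9 of the Lats UMIs in endothelium, 63.2% ± 1.6 in mesenchyme and 38.9% ± 3.7 in keratinocytes, with no overlap among the 3. Mob1a gave 74.1% ± 2.3 in macrophages and 46.4% ± 4.9 in keratinocytes. Wwc1 gave 59.9% ± 5.9 of the Wwc UMIs in keratinocytes, 9.08% ± 0.45 in mesenchyme and 2.12% ± 2.4 in endothelium. In keratinocytes the Lats2 and Stk3 shares lay below, and the Wwc1 share above, the range of mesenchyme in all 4 libraries. In macrophages the Stk3 share lay below it and the Mob1a share above it in all 4, while the Wwc1 share was 10.3% in control 1 and 0 in the others, on 4 to 29 UMIs of the pair. Glial shares were too thin to place, the Stk3 share ranging from 52.9% to 89.7% on 17 to 39 UMIs.

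**Figure D3:**
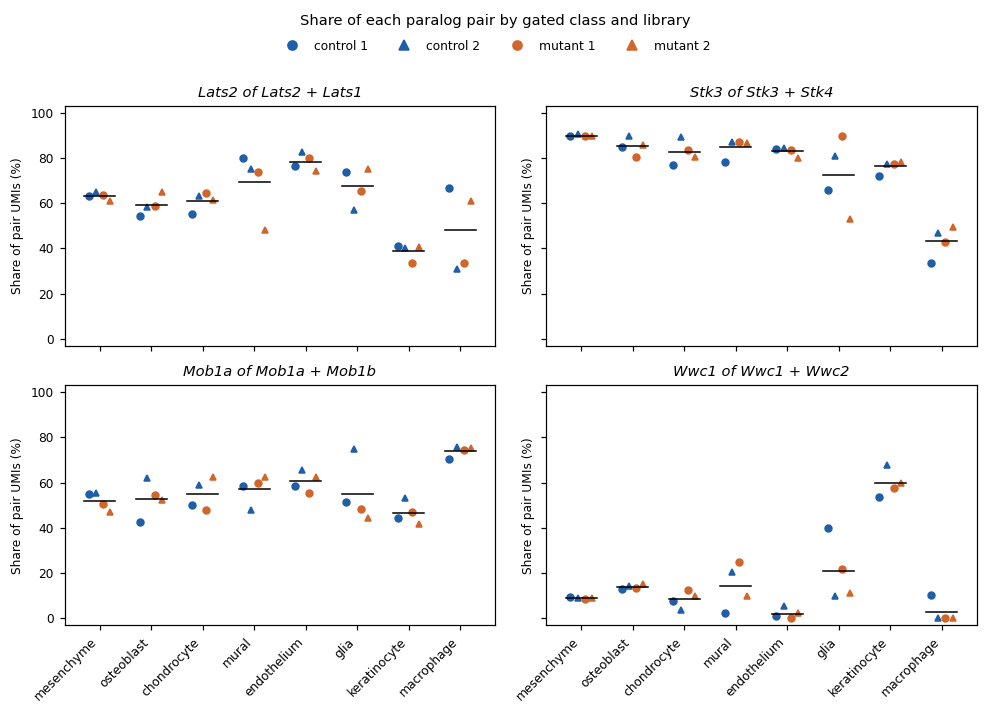
Share of UMIs (percent, vertical axes) given by Lats2, Stk3, Mob1a and Wwc1 within its paralog pair in each of the 8 tested classes; each point is one library and the bar is the mean of 4. Among these 8, Wwc1 exceeds 50% in the keratinocyte class alone, and Stk3 falls below 50% in macrophages in all 4 libraries.

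Nasal epithelium, neurons and skeletal muscle had as few as 10 cells in a library and were tested in a separate fit of 11 classes, chosen after the cell numbers were seen. In nasal epithelium Wwc1 stood at 97.1, 75.3, 148.8 and 130.2 CPM and Mob1b at 84.4, 70.6, 102.8 and 86.0, both higher than the mean of the other classes (3.40 ± 0.21 and 1.42 ± 0.12). Their means of 112.9 and 86.0 CPM stand beside 88.2 and 44.5 CPM in keratinocytes, with overlapping ranges for Wwc1 and separate ones for Mob1b. There 5 of 10 members passed where 42.3% of genes did. In neurons 6 passed where 41.4% of genes did. Neuronal Stk4 was 50.1, 59.0, 42.2 and 54.2 CPM on 5 to 16 UMIs (0.69 ± 0.27, adjusted p = 0.040), and Wwc1 was higher too (2.64 ± 0.40). Neuronal Lats2 had 1, 0, 0 and 0 UMIs and Stk3 11, 0, 3 and 4, both passing as lower. Yap1 in neurons had 11, 0, 0 and 0 UMIs. In skeletal muscle none of the 10 passed, where 33.1% of genes did. The wider reference ended 7 of the 30 calls: Wwc1 and Stk3 in glia (adjusted p = 0.160 and 0.565), Lats2 and Stk3 in keratinocytes (-0.09 ± 0.25 and -0.19 ± 0.12), Lats2 and Stk3 in macrophages (-0.68 ± 0.36 and -0.24 ± 0.15), and Lats1 in mesenchyme (0.21 ± 0.12).

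Other genes of the pathway were taken from a list of 50, of which 49 were among the features and 46 could be tested between classes. In macrophages 36 of the 46 passed, 7 higher and 29 lower, where 59.9% of all genes passed, 29.1% higher and 30.8% lower. The median log2 difference of the 46 in macrophages was -0.86 against -0.093 over all genes. Yap1 had no UMI there and Wwtr1, the other coactivator, had 5, 0, 0 and 2. In keratinocytes 30 passed where 51.1% of all genes did, and 20 were higher where 28.6% were. Crb3, an apical polarity protein, was among the higher ones, at 26.6 ± 5.7 CPM and at most 0.497 CPM in every other tested class. Rassf2, a partner of the Mst kinases, was lower there, at 0.690 ± 0.15 CPM. Endothelium had 28 against 40.2% of all genes, mesenchyme 25 against 48.9% and osteoblasts 24 against 35.3%. Mural cells had 19 against 21.4%, glia 18 against 22.3% and chondrocytes 17 against 35.8%. Whether any of these counts departs from its share was not tested.

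Fat4, a cadherin that acts far upstream, was higher in chondrocytes (169.5 ± 43.5 CPM, 3.09 ± 0.17) and mesenchyme (116.4 ± 14.3 CPM, 2.48 ± 0.15), and lower in glia, with 4 UMIs in all. Its ligand Dchs1 was higher in mesenchyme (44.6 ± 2.9 CPM, 1.78 ± 0.13), the class in which Stk3 was highest. Rassf2 was higher in chondrocytes (1.70 ± 0.28). Endothelium was lower in the TEAD factor Tead3 (2 UMIs in all) and in the cadherin Fat1 (4.47 ± 2.8 CPM). Mural cells were higher in Fjx1, a regulator of the Fat and Dachsous cadherins (46.8 ± 8.5 CPM, 2.58 ± 0.26), and in Yap1 (58.8 ± 12.9 CPM, 1.46 ± 0.22, against a mean that the 0 in macrophages pulls down). Osteoblasts were lower in Ajuba, an inhibitor of the Lats kinases (-1.70 ± 0.26), and higher in Rassf5 (1.68 ± 0.42, on 38 UMIs). Glia held no UMI of the kinase gene Map4k2.

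Across the 32 sums the genes most like each member were found by Pearson correlation of log2 CPM among 11206 genes. The sums share libraries and 8 classes, so these values describe class patterns only. Wwc2 was most like Armcx4 (r = 0.92), Shroom4 (0.92) and Wwtr1 (0.92), one of the pathway's own targets. Wwc1 was most like Ptprf (0.90), Ddr1 and Ank3. Lats2 was most like Lpar4 (0.91), Ttc28 and Hmcn1, and Lats1 like Msx2 (0.85), Pdcd4 and Fgfr2. Stk3 was most like Dchs1 (0.82), Lrrc7 and Ebf3, and Stk4 like Grb2 (0.88), Morc3 and Fth1. Mob1a was most like Arpc2 (0.89), Psme1 and Rab5c, and Mob1b like Rassf7 (0.74), Ulk1 and Mfsd5. Sav1 was most like Arhgap31 (0.81), Cep170 and Anxa5, and Nf2 like Fbxo21 (0.74), Zfp507 and Ralgapa1. Among the members, Lats2 and Wwc2 ran closest (0.84), followed by Stk4 and Mob1a (0.67). Stk4 and Wwc2 (-0.74), Mob1a and Wwc2 (-0.65) and Sav1 and Wwc1 (-0.62) ran opposite.

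Control and mutant libraries were compared over all cells and within each of the 8 classes, to ask whether the kinase arm differed between the groups. None of 80 edgeR tests of the 10 genes passed, the lowest adjusted p being 0.61, and 2 had an unadjusted p under 0.05. DESeq2 called none of them either. Over all cells 0.0% of 18080 genes passed. Within classes 0.794% passed in mural cells, 0.0829% in endothelium, 0.0143% in macrophages, 0.00874% in keratinocytes and 0.0% in glia, chondrocytes, osteoblasts and mesenchyme. In simulated counts with the same spread, 58% of genes given a log2 change of 1 were recovered over all cells and 89% in mesenchyme, but 31% in glia. The changed genes were drawn only from genes with a larger UMI sum than any of the 10 had in glia. The 31% therefore does not give the recovery for these 10, and genes with few UMIs in other classes are not covered either.

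Over all cells Lats2 stood at 40.0, 48.1, 37.2 and 37.5 CPM, lower in both libraries labelled mutant, with a log2 difference of -0.27 ± 0.12 (95% interval -0.56 to 0.01, edgeR adjusted p = 0.909). Wwc2 stood at 79.8, 89.0, 70.9 and 77.8 CPM (-0.22 ± 0.10, interval -0.47 to 0.03), and Mob1a at 32.5, 33.8, 31.6 and 27.5 CPM (-0.21 ± 0.10, interval -0.47 to 0.05). Lats1 was the fourth gene without overlap, at 28.4, 28.1, 26.3 and 26.6 CPM (-0.14 ± 0.084). With a library left out, the difference ranged from -0.42 to -0.12 for Lats2 (smallest without control 2), -0.31 to -0.13 for Wwc2 (without control 2), -0.32 to -0.10 for Mob1a (without mutant 2) and -0.14 to -0.13 for Lats1. All 4 were lower in both libraries labelled mutant, where 37.9% of all genes did not overlap between the groups and 13.0% were lower in both. The other 6 overlapped: Stk3 (-0.04 ± 0.13), Stk4 (0.00 ± 0.095), Sav1 (0.03 ± 0.12), Mob1b (0.12 ± 0.12), Nf2 (-0.06 ± 0.10) and Wwc1 (0.03 ± 0.15). The widest of these intervals, for Wwc1, ran from -0.34 to 0.40. Sums over all cells mix classes whose shares differed between libraries. Mesenchyme made up 64.0%, 72.3%, 68.2% and 64.6% of cells, and keratinocytes 6.31%, 3.88%, 7.78% and 6.75%. What part of the all-cell differences follows from such shares was not tested.

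**Figure D4:**
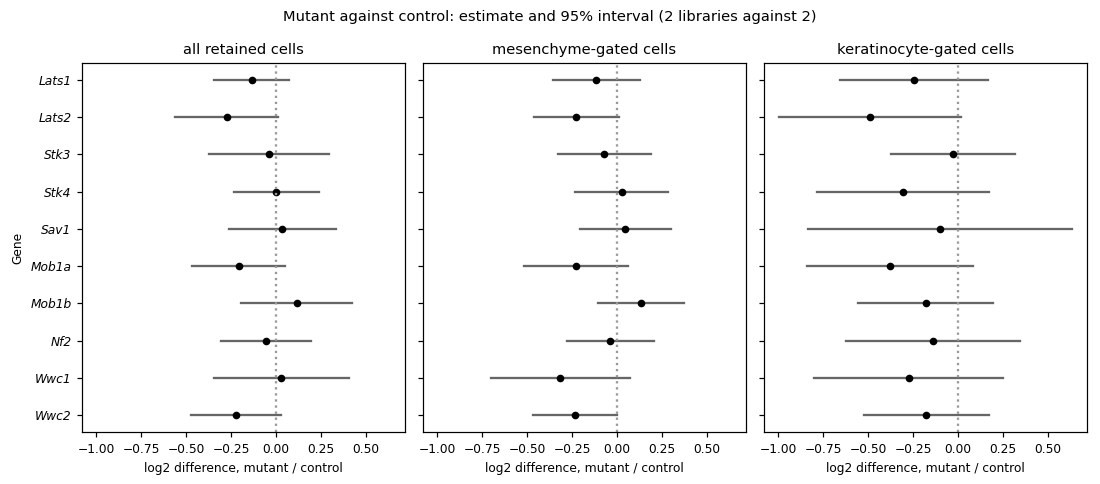
Log2 difference of the libraries labelled mutant against control (horizontal axes) for each of the 10 genes over all cells, in mesenchyme and in keratinocytes; points are edgeR estimates from 2 against 2 libraries and bars their 95% intervals. No estimate passes an adjusted p of 0.05. The median of the keratinocyte points is -0.21, against -0.0024 over all genes tested in that class, and is not read as set apart.

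Within mesenchyme, the class with most cells, Wwc2 stood at 91.0, 100.1, 78.8 and 88.2 CPM, lower in both mutant-labelled libraries (-0.24 ± 0.10, unadjusted p = 0.049, edgeR adjusted p = 0.61). Lats2 (-0.23 ± 0.10), Mob1a (-0.23 ± 0.12) and Wwc1 (-0.32 ± 0.17) were also lower in both, and Stk4 and Mob1b higher in both. That made 6 of 10 without overlap, where 41.2% of genes had none. Of the 15814 genes tested in mesenchyme, 4146 were higher in both libraries labelled mutant and 2374 were lower in both. In keratinocytes 6 of 10 did not overlap, all lower in both libraries labelled mutant, where 36.7% of genes did not overlap and 17.3% were lower. The members' median there was -0.21 against -0.0024 over all genes tested. In the other tested classes the members' median ran from -0.21 in chondrocytes to 0.083 in endothelium. Neither the counts nor the medians of 10 genes are read as set apart. Lats2 in keratinocytes gave 25.7, 25.2, 16.9 and 19.9 CPM (-0.49 ± 0.22, interval -1.00 to 0.02, edgeR adjusted p = 0.895). The Wwc1 difference there was -0.28 ± 0.23. It was -0.65 without control 1 and 0.073 without control 2, fits that each leave 1 control library. In nasal epithelium, tested apart for its few cells, Wwc1 stood higher in both libraries labelled mutant, at 97.1, 75.3, 148.8 and 130.2 CPM (0.60 ± 0.20, unadjusted p = 0.015, edgeR adjusted p = 1.00, on 16 UMIs in control 2). Whether that class differs from keratinocytes was not tested. There 4 members did not overlap where 36.0% of genes did not. Wwc1, Mob1b and Lats1 were higher in both (19.9% of genes) and Lats2 lower (16.1% of genes). In osteoblasts Lats1 gave 30.6, 26.8, 22.2 and 16.9 CPM (-0.64 ± 0.26, unadjusted p = 0.035, edgeR adjusted p = 1.00).

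In glia, the class with Sox10 among its gate markers, 7 of the 10 genes had enough UMIs to test. Nf2 rested on 13, 12, 8 and 3 UMIs (-0.99 ± 0.56, interval -2.21 to 0.24) and Lats2 on 14, 4, 17 and 6 (0.57 ± 0.52, interval -0.56 to 1.70). Stk3 rested on 21, 21, 35 and 9 UMIs (0.19 ± 0.38, interval -0.65 to 1.03). For all 7 genes the 95% interval reached beyond a log2 difference of 1 in at least 1 direction, so a change of that size in that direction lay within it. Whether the group difference itself varied among classes was tested as an interaction, which 0.0443% of 11290 genes and none of the 10 passed in edgeR. None of them had an unadjusted p under 0.05, the lowest being 0.116 for Lats1. Of the other pathway genes, none of the 49 tested over all cells passed in edgeR, 2 having an unadjusted p under 0.05, and none passed within any class, where 1 or 2 had such a p in each.

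Amotl2, an angiomotin-family protein that binds Yap1 and is itself a known target of it, recurred among these and is named after its values were seen. In mesenchyme it stood at 56.9, 83.0, 42.2 and 43.8 CPM, lower in both libraries labelled mutant, with a log2 difference of -0.74 ± 0.17 (95% interval -1.13 to -0.35) and an edgeR adjusted p of 0.304. Differences of the same sign were estimated over all cells (-0.69 ± 0.20) and in keratinocytes (-0.92 ± 0.28), osteoblasts (-0.74 ± 0.24) and mural cells (-1.36 ± 0.46), none passing. The estimate was -0.44 ± 0.30 in chondrocytes, with overlapping levels, and 0.02 ± 0.25 in nasal epithelium. In mesenchyme it passed with DESeq2 (adjusted p = 0.017), where 63 of 24709 genes were called. It passed with no filter on low counts (adjusted p = 1.4e-07), where 579 of 24709 were called. With a replicate block it passed too (adjusted p = 0.036), where 107 of 15814 were called. The edgeR fit as reported called 0 of 15814 genes there, so these settings called more genes in general. In endothelium and glia the levels of Amotl2 overlapped between the groups. The control 2 library was the highest in each of mesenchyme, keratinocytes, osteoblasts, mural cells and chondrocytes. Without it the mesenchyme difference was -0.44 (adjusted p = 0.208), and without control 1 it was -0.99 (adjusted p = 0.0022). Without control 2 the value became -0.36 over all cells, -0.48 in keratinocytes and -0.56 in osteoblasts. It became -0.80 in mural cells and -0.0010 in chondrocytes. Other pathway genes were called only in fits that leave 1 library in a group. Without control 1 they were Fat1 in glia (2.26), Rassf4 in macrophages (1.24) and Tnik in keratinocytes (-0.76). Without mutant 2 it was Rassf4 in glia (-6.85).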

How the data were processed

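The authors deposited raw UMI counts per gene and barcode for 4 libraries, made with cellranger 8.0.1 per the file headers; the submitters' processing notes name Cell Ranger 4, Seurat 4.3.0 and mm10. The matrices were already limited to 15863 barcodes, 2827 to 4846 per library. Cells were kept as the report states, and a cell joined a class when it held at least 3 of the gate's 8 markers and at least 2 more than any other gate's. Mesenchyme markers did not count against the chondrocyte, osteoblast and mural gates, and mesenchyme cells held at least 3 of their own markers and fewer than 3 of every other gate's. Scrublet (scanpy 1.11.5) marked 0 to 3 cells per library, so its threshold had not worked, and removing its top scorers (56 to 163 cells) served as an alternative. For each class the UMIs of a library were added up. These sums went into the quasi-likelihood test of edgeR 4.0.16 (R 4.3.3; TMM, filterByExpr), with Benjamini-Hochberg adjustment over all genes of a comparison at 0.05, after tests on simulated data. Standard errors are the log2 difference divided by the square root of F. Cells of a library are not replicates, and p-values measure the spread between libraries, for which nothing states separate litters. More than 1 sequencing provider is named without saying which library went where, so a batch could not be tested, and a further sample the labels mention was not analysed here.

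The 10 genes and the lists were chosen with earlier results of these data known. The text names all 10, Yap1 and Wwtr1, any other pathway gene passing between the groups, the 2 passing pathway genes of largest difference per class, and the 3 genes most correlated with each member. Amotl2 was named after its values were seen. Alternatives were DESeq2 1.42.0, RLE size factors, no filter, stricter cells (at least 1000 genes, at most 5% mitochondrial), a gate of 4 markers, single groups, no library block, a replicate block, each library left out, and, added after seeing the data, classes of at least 10 cells, mesenchyme as the reference, and crossed pairing in chondrocytes. Levels were not corrected for free RNA, and floors at a count of 0 cover counting error only.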

Additional observations from a re-analysis of the deposited data

Results flagged for a closer look

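Among 80 sets of 4 libraries (10 genes in 8 classes), 5 held a library whose gap to the nearest other took more of the range than Dixon's 95% critical value, where chance gives about 1 in 20. Wwc2 in chondrocytes was at 131.6 CPM in control 2 (75 UMIs), and the other 3 libraries lay between 92.1 and 93.6. Sav1 in keratinocytes was at 13.8 CPM in control 2 (17 UMIs), against 10.6 to 11.1 in the others. Lats1 was at 24.1 CPM in glia of mutant 1 (9 UMIs), against 12.4 to 13.8, and at 27.9 CPM in mural cells of mutant 2 (13 UMIs), against 11.9 to 14.1. Wwc1 in macrophages was at 3.69 CPM in control 1 (3 UMIs) and at 0 in the other 3 libraries.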

How the results depend on the processing

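The 30 called class differences of the 10 genes kept their direction under all 444 alternatives run, and the call was kept in 405 and lost in 39. The number of members called in glia was 2 and became 1 with stricter cells, with Scrublet doublets removed, with a gate of 4 markers and in control libraries only, and 0 in mutant libraries only and with classes of 10 cells (0 to 2 with a library left out). In mural cells it was 0 and became 1 with stricter cells and with a gate of 4 markers, 2 against mesenchyme alone and 3 with classes of 10 cells (0 to 2 with a library left out). In osteoblasts it was 1 and became 2 with no filter, in control libraries only and against mesenchyme alone, 0 in mutant libraries only and 4 with classes of 10 cells (1 to 2 with a library left out). Fewer samples were fitted in single groups. The cause of the other shifts was not tested. Other Hippo genes called fell from 17 to 11 in chondrocytes (control libraries only, and against mesenchyme alone), from 18 to 9 in glia (control or mutant libraries only), from 25 to 15 and 16 in mesenchyme (control and mutant libraries only) and from 19 to 12 in mural cells (control libraries only). The Wwc1 share in osteoblasts was 13.9% and became 18.2% with a gate of 4 markers.

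Between mutant and control, members called stayed at 0 except in keratinocytes with a library left out (0 to 1). With a library left out, other Hippo genes called ranged from 0 to 1 over all cells and in glia, macrophages, mesenchyme and mural cells, and from 0 to 2 in keratinocytes. They were 1 with no filter in keratinocytes and mesenchyme, and 1 with DESeq2 in mesenchyme. Stk4 over all cells, at 0.0010 on the log2 scale, turned to -0.0035 with RLE, -0.0021 with stricter cells and -0.0007 with DESeq2. With a library left out, values over all cells that changed sign ranged from -0.0011 to 0.25 (Mob1b), -0.15 to 0.033 (Nf2), -0.090 to 0.16 (Sav1), -0.21 to 0.15 (Stk3), -0.043 to 0.050 (Stk4) and -0.15 to 0.25 (Wwc1). In mesenchyme they ranged from -0.11 to 0.042 (Nf2), -0.028 to 0.12 (Sav1) and -0.18 to 0.057 (Stk3), and in keratinocytes from -0.65 to 0.073 (Wwc1). Genes called among all genes ranged over the comparisons from 0 to 52 as reported, 10 to 579 with no filter, 0 to 63 with DESeq2 and 41 to 725 without control 1.

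With a replicate block, 0 members were called in every comparison, other Hippo genes called became 1 in keratinocytes, mesenchyme and mural cells, and the range over all genes became 0 to 284. The labels do not say that libraries of the same number share a litter or day. Deviations of same-numbered libraries correlated at -0.035 over all cells and at -0.11 to 0.099 within classes, and a shared batch was not tested. Crossed pairing in chondrocytes called 0 members and 0 other Hippo genes.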
